A study of Mus musculus with 64 samples.

Results

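The LSK libraries of Smarcd2 knockout and wild-type fetal livers were compared, 14 of the 64 libraries of the series. LSK cells carry CD45.2, Sca1 and cKit, lack lineage antigens and have no or little Mac1. The members were chosen from the labels alone, by sorted population and genotype, and fell into 5 wild-type (WT) and 9 knockout (KO, Smarcd2 -/-) libraries. All came from C57BL/6 fetal liver at 13 to 14 days post coitum, and 9 heterozygous (+/-) LSK libraries entered the model only to steady the estimate of the spread. The series asked how SMARCD2 acts in early blood cells, and it also holds later progenitor populations of the same genotypes.

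The sources used here do not describe the mutant allele. The labels name each library by a title number and a library number, such as WT22.8, and do not say whether any of them share a fetus. The p-values therefore measure the spread between these libraries.

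The LSK gate holds the blood stem cells and the multipotent progenitors that follow them, which in the fetal liver are dividing and building cell mass. SMARCD2 is a subunit of the BAF (SWI/SNF) complexes, which use ATP to slide or evict nucleosomes and so open DNA to transcription factors. It is best known for its role in the formation of neutrophil granulocytes. Dividing progenitors rely on ribosome assembly, protein folding and mitochondrial respiration, while cells short of oxygen turn up glycolytic genes through the transcription factor HIF-1.

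Reads in genes ranged from 4439304 to 7381611 in the WT libraries and from 4327582 to 13741434 in the KO libraries. All 12 of the LSK marker genes that were looked at passed the count filter, and their summed level was 3151 to 3863 CPM (read counts scaled to the library total) in WT and 3498 to 4354 CPM in KO. Summed erythroid markers (16 genes) reached 706 to 2556 CPM in WT, highest in WT22.8, against 653 to 1031 CPM in KO. Summed macrophage markers (19 genes) reached 384 to 1712 CPM in WT and 187 to 2356 CPM in KO, highest in KO22.2. Megakaryocyte markers (12 genes) summed to 459 to 619 CPM in WT and 621 to 850 CPM in KO, without overlap. Endothelial markers (14 genes) summed to 502 to 569 CPM in WT and 425 to 895 CPM in KO, and markers of B and T cells (12 genes) to 103 to 136 CPM in WT and 102 to 199 CPM in KO. Hepatocyte markers (19 genes) summed to 66.8 to 77.4 CPM in WT and 69.0 to 122.5 CPM in KO. Stromal markers (13 genes) summed to 26.8 to 80.0 CPM in WT and 42.7 to 91.3 CPM in KO, and markers of mast cells, basophils and eosinophils (13 genes) to 49.4 to 127 CPM in WT and 59.7 to 127 CPM in KO. Cd3e and Epx were at 0 in all 14 libraries. In bulk samples fewer cells of a type and less RNA per cell cannot be told apart.

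Library quality differed in part along with genotype. Spike-in reads made up 0.516% ± 0.139 (SD, n = 5) of the WT libraries and 0.781% ± 0.239 (SD, n = 9) of the KO libraries (exact two-sided permutation p = 0.045, 0.112 after Benjamini-Hochberg adjustment over 5 library measures). A length index was taken as the median log2 level of long genes (longest transcript over 5000 bases) minus that of short ones (under 1500 bases), centred on 0, and was -0.13 ± 0.12 in WT and 0.08 ± 0.14 in KO (exact two-sided permutation p = 0.0215, adjusted 0.107). It was above all WT libraries in 6 of 9 KO libraries. By label, 4 WT and 5 KO libraries were female. The level of Xist against Y-linked genes fitted the labelled sex in 21 of 23 LSK libraries, and the 2 that did not were heterozygous. The part of these measures in the results was not tested.

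Smarcd2 (GRCm38 chromosome 11, 106263179 to 106272972, minus strand) checked the genotype labels. Its level in the WT libraries WT19.2, WT21.1, WT21.5, WT22.8 and WT24.10, the order used throughout, was 56.4, 70.4, 53.1, 50.4 and 49.4 CPM. The 9 KO libraries held 0.845 to 1.94 CPM, with a median of 1.13, so that no library went against its label. The difference was -5.46 on the log2 scale (SE 0.25, edgeR quasi-likelihood adjusted p = 1.95e-14).

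The next gene on the chromosome, Psmc5 (106256154 to 106263120, plus strand), fell as well. It encodes an ATPase of the proteasome's regulatory particle. It measured 258, 234, 220, 237 and 232 CPM in WT and 70.2 to 90.7 CPM (median 83.8) in KO, a log2 difference of -1.53 (SE 0.07, edgeR adjusted p = 2.06e-15). All 9 KO libraries were below all 5 WT libraries. On the other side of Smarcd2, Tcam1 (106276672 to 106288745) had 1.99 to 3.83 CPM in WT and 0.424 to 2.58 CPM in KO, a fall of 1.59 (SE 0.33, edgeR adjusted p = 0.00146) of a gene with few reads. The genes beyond Psmc5, the ribosome assembly methyltransferase gene Ftsj3 (-0.11, edgeR adjusted p = 0.482) and the helicase gene Ddx42 (-0.12, edgeR adjusted p = 0.21), did not pass. The difference at Psmc5 and Tcam1 cannot be told apart from an effect of the targeted allele on its neighbours. Ern1 (106394650 to 106487852) and Pecam1 (106654217 to 106750628), given below as rises, lie further along on the Tcam1 side. The same holds for them.

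Across all 13878 genes tested, 18.8% passed an adjusted p of 0.05. In all, 1322 rose (9.53%) and 1288 fell (9.28%), and for 940 (6.77%) every KO library lay beyond every WT library. Such separation held for 372 of the rises and 529 of the falls. Many genes named below were picked for a small p in these libraries, which favours it. Rises and falls differed in kind. The median rise was 0.55 and the median fall -0.36 on the log2 scale, and 234 rises but only 24 falls reached 1. Falls came from strongly expressed genes, with a median mean log2 CPM of 6.65, against 4.90 for rises and 4.86 for all genes tested. At a mean log2 CPM of at least 7, 27.1% of 1885 genes fell and 6.95% rose. The median longest transcript of the falls was 2419 bases, against 3499 for rises and 3069 for all genes, so the falls lay among shorter genes. The length index is computed from these same counts, so it is no separate sign of this. Fits with the index can take up part of the genotype difference itself. Of the genes that fell, 226 were annotated pseudogenes, against 30 of those that rose. Reads shared between a gene and its processed copies could have been split or moved between them by the counting.

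The number of calls moved with a single library and with the quality measures. Without WT22.8, the library with the most erythroid marker reads, 868 genes rose and 816 fell. With the length index in the model 708 rose and 666 fell, with the spike-in share 815 and 797, and among the female libraries alone 515 and 410. Of the 1322 genes that rose, 1260 were higher in KO within each of the 4 title numbers that held both genotypes. The same was so for 3093 of all 13878 genes tested. Of the 1288 genes that fell, 1212 were lower within each of the 4, against 2982 of all genes. These counts use libraries that also gave the calls, and all genes include those called, so they are no separate replication.

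**Figure D1:**
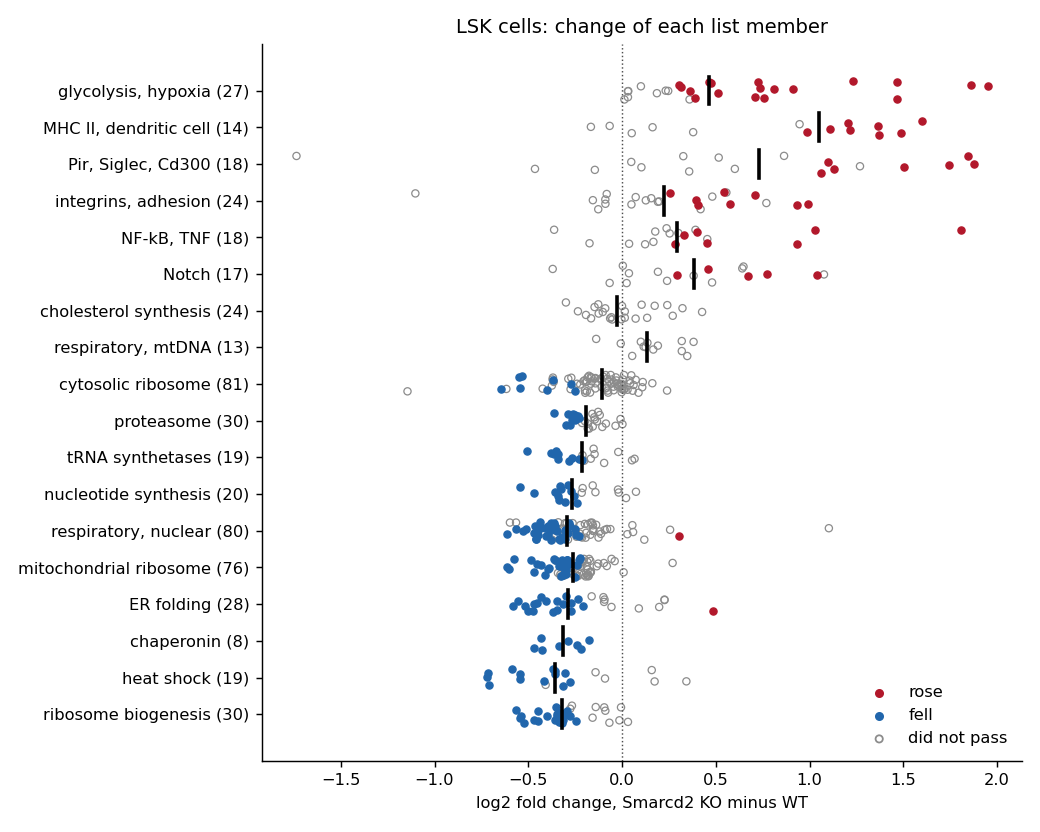
Log2 difference (KO minus WT) of each tested member of 18 gene lists, 1 point a gene, filled where the gene passed an adjusted p of 0.05, with a bar at the list's median. All 8 chaperonin subunits lie below 0, and all 27 tested glycolysis and hypoxia genes lie above 0.

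Of 28 listed glycolysis and hypoxia genes 27 were tested, 18 rose and 0 fell, with a median of 0.46, and all 27 estimates were above 0. The median for all genes was 0.01. The median level of the list's members, in log2 units relative to the WT mean, was -0.10 to 0.05 in WT and 0.10 to 0.68 in KO, without overlap. The count was 15 with the length index and 17 with the spike-in share in the model, 7 among females, and 17 to 20 when any 1 library was left out.

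Genes that answer to low oxygen were among the largest rises of the list. Ankrd37, a HIF-1 target of little-known function, measured 10.9, 10.8, 9.05, 8.23 and 14.8 CPM in WT and 18.3 to 70.2 CPM (median 35.7) in KO. Its log2 difference was 1.86 (SE 0.24, edgeR adjusted p = 1.87e-05), and no KO library reached down into the WT range. Bnip3, which tags mitochondria for removal by autophagy, measured 41.5, 68.3, 53.7, 46.5 and 70.9 CPM in WT and 84.4 to 242 CPM (median 141) in KO, a rise of 1.47 (SE 0.20, edgeR adjusted p = 4.86e-05). Ndrg1, a stress-induced gene, rose from 6.45 to 8.65 CPM in WT to 11.5 to 20.9 CPM in KO (1.23, SE 0.16), and the histone demethylase gene Kdm3a from 72.8 to 104.9 CPM to 123 to 228 CPM (0.91, SE 0.13). The groups did not overlap for any of these.

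Genes for the uptake and breakdown of glucose rose as well. Slc2a1, which encodes the glucose transporter GLUT1, measured 101, 90.8, 88.1, 88.7 and 106 CPM in WT and 117 to 247 CPM (median 163) in KO, a rise of 0.81 (SE 0.15, edgeR adjusted p = 5.54e-04). The aldolase gene Aldoa rose by 0.48 (SE 0.09), with 8 of 9 KO libraries above all WT, the enolase gene Eno1 by 0.46 (SE 0.10) and the pyruvate kinase gene Pkm by 0.39 (SE 0.08). The second aldolase gene Aldoc rose from 1.84 to 6.55 CPM to 3.88 to 15.2 CPM (1.47, SE 0.31). Aldoc, Eno1 and Pkm were not past the threshold among females alone. Pgk1, for phosphoglycerate kinase, had an estimate of 0.23 (SE 0.11, edgeR adjusted p = 0.139), and Ldha, for lactate dehydrogenase, one of 0.10 (SE 0.08, edgeR adjusted p = 0.377). Mxi1, a HIF-1 target that opposes MYC, rose by 0.76 (SE 0.16), from 9.58 to 13.3 CPM to 14.2 to 23.9 CPM.

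HIF-1 binds DNA at the core ACGTG. The promoter stretches of the 3 genes above with the motif in view are shown because these genes span the list's large and moderate rises. Each holds the 250 bases before the RefSeq start site on GRCm38.p6, 5′ to 3′ on the gene's strand, with capitals marking ACGTG on either strand. Bnip3 is at chr7:138909507-138909756 (minus), Ankrd37 at chr8:45999851-46000100 (minus) and Slc2a1 at chr4:119108495-119108744 (plus).
Bnip3: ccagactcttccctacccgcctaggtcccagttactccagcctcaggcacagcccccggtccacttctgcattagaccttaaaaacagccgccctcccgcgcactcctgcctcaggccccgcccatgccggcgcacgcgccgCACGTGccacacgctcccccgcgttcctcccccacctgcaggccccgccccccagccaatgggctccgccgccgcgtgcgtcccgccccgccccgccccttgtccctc
Ankrd37: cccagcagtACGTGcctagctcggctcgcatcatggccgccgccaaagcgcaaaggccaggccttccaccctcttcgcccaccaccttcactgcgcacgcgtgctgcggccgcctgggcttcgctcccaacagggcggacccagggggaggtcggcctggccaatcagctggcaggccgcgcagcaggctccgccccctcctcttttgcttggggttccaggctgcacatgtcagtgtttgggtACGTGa
Slc2a1: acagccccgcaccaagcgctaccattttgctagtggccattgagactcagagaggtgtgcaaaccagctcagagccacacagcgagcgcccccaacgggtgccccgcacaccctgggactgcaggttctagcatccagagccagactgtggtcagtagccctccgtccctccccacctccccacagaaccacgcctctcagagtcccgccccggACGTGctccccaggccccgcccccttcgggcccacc
In Bnip3 the capitals are a match on each strand that overlap as CACGTG. In windows of 300 bases (250 before the start to 50 after), ACGTG on either strand was found in 14 of 29 windows (48.3%) of the glycolysis and hypoxia genes that rose, 16 of the 18 being matched in RefSeq. It was found in 51.2% of windows of all tested members, 25.4% of windows of all genes tested and 43.8% of those of the endoplasmic reticulum genes that fell. A match describes these letters and is no sign of binding.

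**Figure D2:**
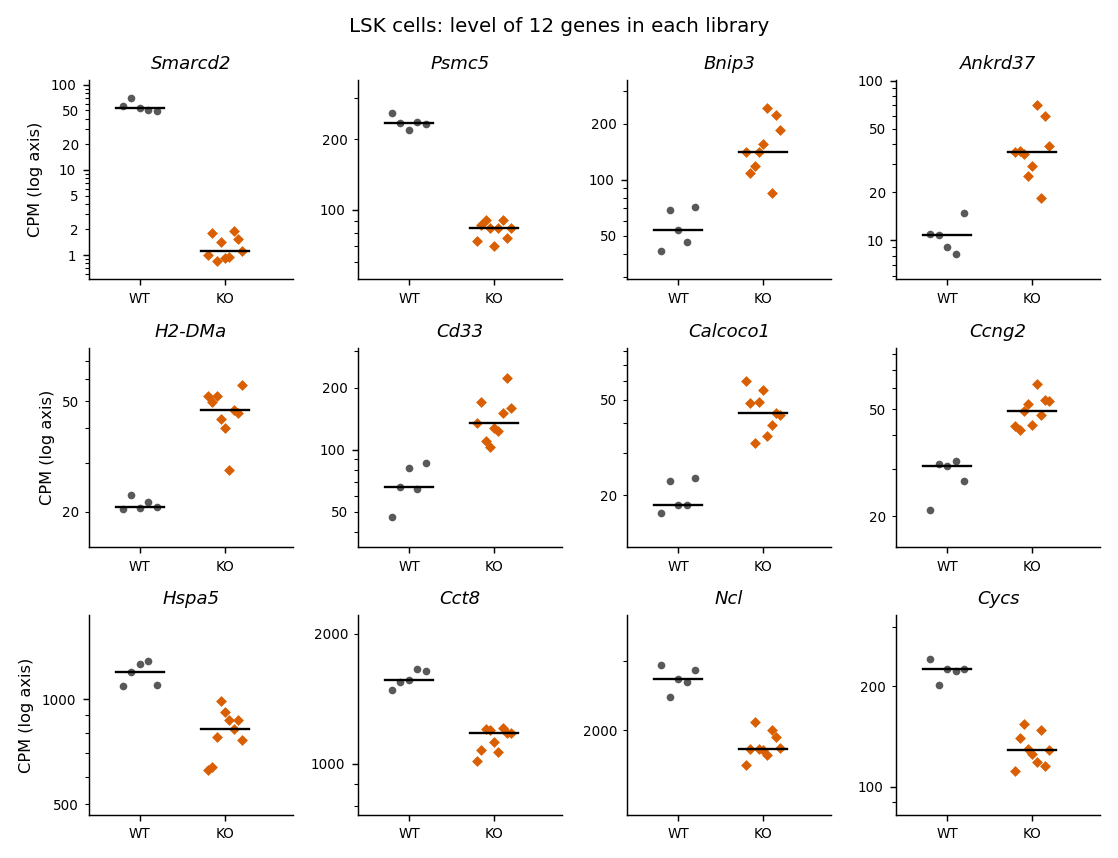
Level in CPM (log axis) of 12 genes in each of the 5 WT and 9 KO libraries, 1 point a library, with a bar at the group's median. Bnip3 lies at 41.5 to 70.9 CPM in WT and 84.4 to 242 CPM in KO, and Psmc5 at 220 to 258 CPM in WT and 70.2 to 90.7 CPM in KO.

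Of 19 listed MHC class II and dendritic cell genes 14 were tested, 8 rose and 0 fell, with a median of 1.05. The class II chain genes H2-Aa and H2-Eb1 were below the count filter, as were Ciita, Ly6d and Batf3. Of 18 tested MHC class I and antigen processing genes 7 rose and 0 fell, with a median of 0.22. The class II and dendritic cell count was 7 or 8 under the length index, the spike-in share, among females, and with any 1 library left out. Of 16 tested macrophage markers 0 rose and 1 fell, and their part in this result was not tested. Without WT22.8 and KO22.2, which had the most erythroid and macrophage reads, the class II and dendritic cell count was again 8.

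H2-DMa, which helps load peptides onto class II molecules, measured 20.44, 23.01, 20.72, 21.71 and 20.84 CPM in WT. It reached 28.2 to 57.2 CPM (median 46.5) in KO, a rise of 1.11 (SE 0.14, edgeR adjusted p = 1.26e-05) with every KO library above every WT library. H2-Ab1, a class II chain itself, had 1.56 to 5.03 CPM in WT and 4.31 to 10.98 CPM in KO (1.36, SE 0.30). Itgax, the dendritic cell integrin CD11c, rose by 1.60 (SE 0.25), from 3.42 to 4.37 CPM to 4.69 to 19.38 CPM. Among class I genes, Nlrc5, the activator of class I transcription, rose by 1.82 (SE 0.39), the peptide transporter gene Tap1 by 0.76 (SE 0.14) and the non-classical class I gene H2-T23 by 1.05 (SE 0.15). H2-T23 went from 31.4 to 48.6 CPM in WT to 59.9 to 118 CPM in KO, without overlap. Genes of the H2 families resemble each other, so reads between close copies could be shared.

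Of 18 tested inhibitory and activating receptors of myeloid cells, from the paired Ig-like, Siglec and Cd300 families, 7 rose and 0 fell, with a median of 0.73. The count stayed at 7 under the length index, the spike-in share, among females and with any 1 library left out. Cd33, a sialic acid receptor of myeloid progenitors, measured 47.4, 66.2, 81.3, 64.6 and 86.7 CPM in WT and 103 to 223 CPM (median 135) in KO, a rise of 1.06 (SE 0.15, edgeR adjusted p = 5.92e-05). Siglece rose from 3.57 to 7.19 CPM to 9.62 to 14.2 CPM (1.10, SE 0.21), and Cd300lb by 1.85 (SE 0.42). Pirb (1.50, SE 0.30) and Pira2 (1.88, SE 0.40), receptors for class I molecules, also rose, but the Pir genes are near-identical copies among which reads could be split.

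Cytokine receptors and adhesion genes followed in smaller numbers. Of 33 tested cytokine and chemokine receptor genes 8 rose and 0 fell, with a median of 0.16, but 5 rose without WT21.1 or without WT21.5, 3 with the length index and 4 among females. Il10ra, a chain of the interleukin-10 receptor, rose from 16.1, 21.61, 21.53, 23.8 and 30.2 CPM in WT to 41.1 to 101 CPM (median 58.5) in KO, by 1.38 (SE 0.22, edgeR adjusted p = 1.61e-04). Ifngr1, a chain of the interferon-gamma receptor, rose by 0.43 (SE 0.09), with 8 of 9 KO libraries above all WT. Of 24 tested integrin, selectin and adhesion genes 8 rose and 0 fell, and 5 rose without WT22.8, with the spike-in share, among females or with the length index. Itga9 rose from 10.8 to 15.3 CPM to 21.32 to 32.2 CPM (0.93, SE 0.15) and Pecam1, the endothelial and stem cell molecule CD31, from 60.5 to 86.3 CPM to 93.8 to 143 CPM (0.71, SE 0.12). Pecam1 lies on the chromosome of Smarcd2, as given above. Itgam, which encodes the Mac1 antigen of the gate, rose by 0.99 (SE 0.19). Of 14 endothelial markers 2 rose (14.3%), against 9.53% of all genes.

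**Figure D3:**
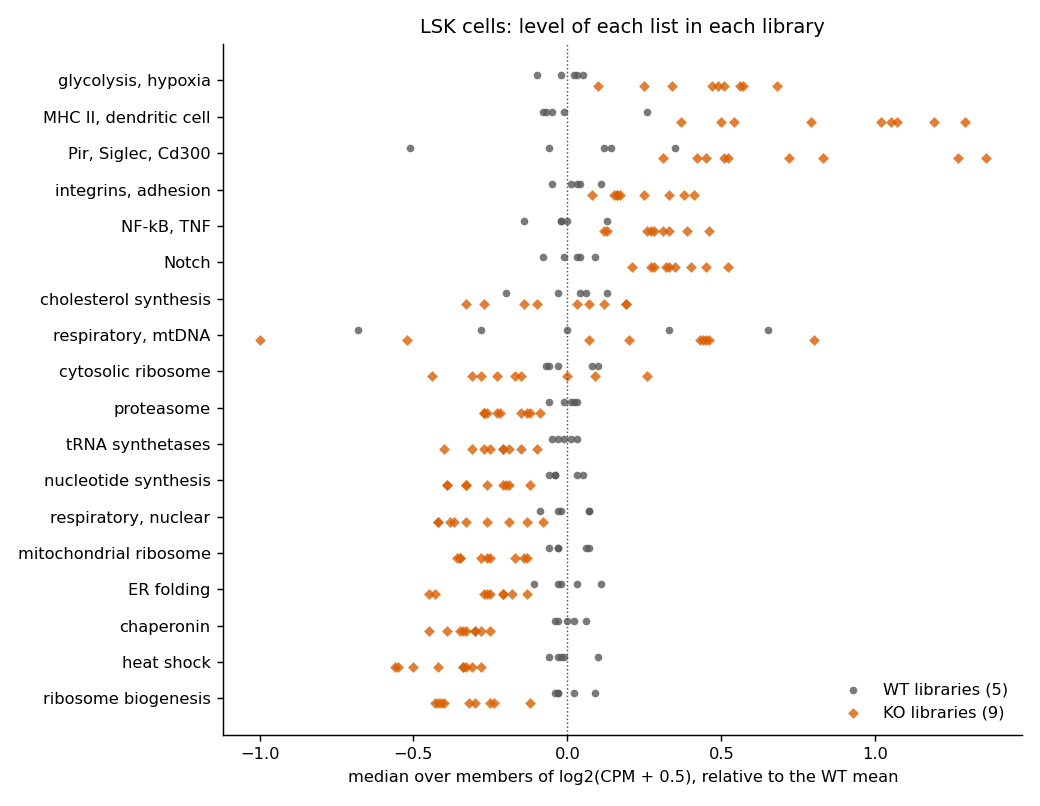
Median member level of each gene list in each library (log2(CPM + 0.5) relative to the WT mean), 1 point a library. The glycolysis and hypoxia list lies at -0.10 to 0.05 in WT and 0.10 to 0.68 in KO, and the chaperonin list at -0.04 to 0.06 in WT and -0.45 to -0.25 in KO.

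Tnip3, an inhibitor of NF-kappaB, rose from 14.09, 10.98, 15.49, 11.92 and 28.03 CPM in WT to 28.98 to 78.9 CPM (median 54.9) in KO, by 1.81 (SE 0.27, edgeR adjusted p = 1.07e-04). It led an NF-kappaB list of which 7 of 18 rose and 0 fell, a count of 4 without KO19.5, KO19.6, WT21.1, WT21.5 or WT22.8 or with the spike-in share, of 3 with the length index and of 2 among females. Relb, a subunit of NF-kappaB, rose by 1.03 (SE 0.27) and was not past the threshold without both WT22.8 and KO22.2. Of 17 Notch pathway genes 5 rose and 0 fell, 3 without WT21.5, WT22.8 or WT24.10, and 1 with the length index or among females. Tsc22d3, a glucocorticoid-induced brake on inflammation, rose by 0.72 (SE 0.10), from 43.7 to 68.0 CPM to 78.9 to 106 CPM. Of 22 tested TGF-beta and BMP signalling genes 3 rose (13.6%) and 0 fell, against 9.53% and 9.28% of all genes. Their median was 0.03, with 11 estimates above and 11 below 0. Smad7, an inhibitor of TGF-beta signalling, rose by 1.16 (SE 0.24), and the TGF-beta receptor gene Tgfbr2 by 0.44 (SE 0.11). Neither passed among females alone.

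Several of the clearest rises lay in no list. Calcoco1, a nuclear receptor coactivator and autophagy receptor, measured 16.9, 23.01, 18.3, 18.3 and 23.7 CPM in WT and 33.1 to 59.6 CPM (median 44.2) in KO, a rise of 1.18 (SE 0.14, edgeR adjusted p = 1.26e-05). Slc35d3, a transporter gene needed for platelet dense granules, rose from 39.8 to 59.1 CPM to 86.8 to 138 CPM (1.08, SE 0.13). The actin regulators Cttn (1.34, SE 0.17), which branches actin filaments, and Gsn (1.19, SE 0.15), which severs them, rose, as did Cass4 (1.53, SE 0.20), an adhesion scaffold. Pik3ap1, an adaptor between receptors and PI3-kinase, rose by 0.66 (SE 0.09), and Rcn3, a calcium-binding protein of the endoplasmic reticulum, by 0.92 (SE 0.12). Uba7, the enzyme that activates the ubiquitin-like ISG15, rose by 0.89 (SE 0.12). For each of these 8 genes every KO library lay above every WT library, as for 372 of all 1322 rises. Since they were named for a small p in the same libraries, this is no separate evidence. Stc1, a secreted hormone gene induced by stress, rose by 1.33 (SE 0.27), with 8 of 9 KO libraries above all WT.

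All 8 subunits of the chaperonin TRiC, the ring that folds actin and tubulin, fell, by 0.18 to 0.47. Of 19 tested cytosolic and mitochondrial heat shock genes 13 fell and 0 rose, with a median of -0.36. The chaperonin count was 5 with the length index, 4 among females, 8 with the spike-in share, and 7 or 8 with any 1 library left out, Cct7 not passing without WT21.1, and also not among females or without the count filter. The heat shock count was 12 with the spike-in share, 10 with the length index, 8 among females, and 12 to 14 with any 1 library left out.

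Cct8, a TRiC subunit, measured 1483, 1551, 1562, 1658 and 1639 CPM in WT and 1015 to 1211 CPM (median 1181) in KO, a log2 difference of -0.47 (SE 0.06, edgeR adjusted p = 1.26e-05). Every KO library was below every WT library. The mitochondrial chaperonin pair fell together, Hspd1 from 640 to 704 CPM to 392 to 535 CPM (-0.55, SE 0.07) and Hspe1 from 126 to 152 CPM to 69.4 to 106 CPM (-0.72, SE 0.11). Dnaja2, a co-chaperone outside the list that hands proteins to HSP70, went from 646 to 744 CPM to 443 to 532 CPM (-0.54, SE 0.07). Cacybp, which binds the ubiquitin ligase machinery and acts with HSP90 partners, went from 724 to 838 CPM to 372 to 563 CPM (-0.71, SE 0.09). Hsph1, a nucleotide exchanger for HSP70, fell by 0.71 (SE 0.19), but did not pass with the length index, the spike-in share or among females.

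Of 28 tested endoplasmic reticulum folding and degradation genes 18 fell and 1 rose, with a median of -0.29. This count depended on the fit: 10 fell without WT22.8, 7 with the spike-in share, 4 with the length index and 5 among females. The list's level was nonetheless -0.11 to 0.11 in WT and -0.45 to -0.13 in KO, without overlap. Hspa5, the main chaperone of the endoplasmic reticulum (BiP), measured 1091, 1195, 1264, 1291 and 1099 CPM in WT and 629 to 986 CPM (median 824) in KO, a log2 difference of -0.55 (SE 0.11, edgeR adjusted p = 0.00133) that passed in all alternatives run. Pdia3, which forms disulphide bonds in glycoproteins, went from 1572 to 1848 CPM to 1017 to 1492 CPM (-0.48, SE 0.09). Hsp90b1, the HSP90 of this compartment, had 965, 1065, 1163, 1201 and 1142 CPM in WT and 545 to 924 CPM (median 749) in KO (-0.58, SE 0.14, edgeR adjusted p = 0.00515). Its groups did not overlap, but it did not pass with the length index, the spike-in share or among females. Canx, the lectin chaperone calnexin, fell by 0.31 (SE 0.09), a call lost in those 3 fits and without WT24.10. The 1 rise was Ern1 (0.48, SE 0.15), the sensor IRE1 of unfolded proteins, a gene on the chromosome of Smarcd2 as given above. Its call was lost without WT19.2, WT21.1 or WT21.5, with the length index and among females. Xbp1, whose transcript IRE1 cuts, fell by 0.35 (SE 0.10), lost without WT22.8 (also with KO22.2 left out), with the spike-in share, among females and with the length index.

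The transcription factors ATF6 and NF-Y act together at the endoplasmic reticulum stress element, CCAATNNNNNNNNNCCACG. The 3 stretches below are shown because the element was found, on either strand, in 7 of 16 windows (43.8%) of the endoplasmic reticulum genes that fell. It was in 0.119% of all 32851 promoter windows and in 0.146% of windows of all genes tested. The 7 genes were Calr, Canx, Creld2, Dnajc3, Hsp90b1, Hspa5 and Pdia6, named for the match, and 16 of the 18 genes were matched. Among all tested members 33.3% of windows held it. In 0 windows was it found among the listed genes that fell in ribosome biogenesis, the chaperonin, the heat shock group and nucleotide synthesis. Each stretch is the 250 bases before the RefSeq start site on GRCm38.p6, 5′ to 3′ on the gene's strand, with the element in capitals. Hspa5 is at chr2:34771840-34772089 (plus), Hsp90b1 at chr10:86705445-86705694 (minus, 1 match on each strand) and Canx at chr11:50325674-50325923 (minus).
Hspa5: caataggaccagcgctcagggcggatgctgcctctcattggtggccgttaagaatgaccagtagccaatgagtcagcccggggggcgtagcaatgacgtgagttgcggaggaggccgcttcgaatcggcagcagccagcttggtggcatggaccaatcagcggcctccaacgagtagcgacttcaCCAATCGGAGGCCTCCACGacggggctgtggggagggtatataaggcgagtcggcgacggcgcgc
Hsp90b1: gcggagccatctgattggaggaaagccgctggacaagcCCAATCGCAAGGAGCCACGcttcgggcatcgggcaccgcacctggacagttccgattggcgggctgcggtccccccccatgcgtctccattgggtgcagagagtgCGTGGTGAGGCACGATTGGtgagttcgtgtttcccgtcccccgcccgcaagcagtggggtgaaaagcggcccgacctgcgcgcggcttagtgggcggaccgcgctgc
Canx: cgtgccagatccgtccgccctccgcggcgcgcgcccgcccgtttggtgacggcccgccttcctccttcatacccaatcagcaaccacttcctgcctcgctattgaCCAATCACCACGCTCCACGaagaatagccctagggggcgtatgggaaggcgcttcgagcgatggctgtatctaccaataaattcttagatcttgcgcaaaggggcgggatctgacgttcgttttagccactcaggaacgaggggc
Between the element and the start lie 46 bases in Hspa5 and 126 bases in Canx. The match describes letters and says nothing of which factor was bound.

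Of 30 tested ribosome biogenesis genes 20 fell and 0 rose, with a median of -0.32, and 29 of 30 estimates were below 0. The count was 19 with the spike-in share, 17 with the length index, 12 among females and 18 to 20 with any 1 library left out. The list's level was -0.04 to 0.09 in WT and -0.43 to -0.12 in KO. Ncl, the abundant nucleolar protein nucleolin, measured 2942, 2433, 2713, 2653 and 2852 CPM in WT and 1625 to 2097 CPM (median 1791) in KO, a log2 difference of -0.57 (SE 0.08, edgeR adjusted p = 2.05e-05). Every KO library was below every WT library. The RNA helicase gene Ddx21, which couples RNA polymerase I to rRNA processing, went from 229 to 267 CPM to 156 to 198 CPM (-0.54, SE 0.07), and Pno1, an assembly factor of the small subunit, from 121 to 161 CPM to 74.0 to 115 CPM (-0.69, SE 0.10). Outside the list, Pa2g4, a growth regulator found on ribosomes, went from 533 to 602 CPM to 369 to 463 CPM (-0.48, SE 0.06), and the nucleolar protein gene Lyar from 127 to 152 CPM to 66.6 to 124 CPM (-0.65, SE 0.10). Polr1b, a catalytic subunit of RNA polymerase I, fell by 0.35 (SE 0.08) and did not pass among females. Myc, whose protein drives this class of genes, had 285, 245, 278, 182 and 216 CPM in WT and 121 to 284 CPM (median 190) in KO and did not pass (-0.30, SE 0.17, edgeR adjusted p = 0.22).

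Structural proteins of the cytosolic ribosome behaved otherwise. Of 81 tested genes 8 fell (9.88%) and 0 rose, a share near the 9.28% of all genes. With the length index in the model 2 fell and 6 rose, and the median turned from -0.11 to 0.09. The count ran from 3 to 12 with 1 library left out, at 3 without WT19.2 or WT22.8. Rpl27 passed in every fit (-0.54, SE 0.11), but genes of this family have many processed copies, among which reads could be split.

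Charging of tRNA and supply of nucleotides showed the same direction. Of 19 tested aminoacyl-tRNA synthetase genes 10 fell and 0 rose (7 among females, 8 with the length index), and of 20 nucleotide synthesis genes 12 fell and 0 rose (3 among females, 12 with the length index). Gars, which charges glycine tRNA, measured 376 to 458 CPM in WT and 244 to 326 CPM in KO (-0.50, SE 0.07), and Tars, for threonine, 188 to 233 CPM in WT and 147 to 179 CPM in KO (-0.38, SE 0.06). Ctps, which makes CTP, went from 159 to 210 CPM to 118 to 149 CPM (-0.47, SE 0.10), and Nme1, a nucleoside diphosphate kinase, from 189 to 215 CPM to 123 to 171 CPM (-0.55, SE 0.08). Beyond these lists, Mthfd2, a mitochondrial enzyme that supplies one-carbon units for purines, fell by 0.60 (SE 0.12). Mtap, which salvages adenine and methionine from polyamine synthesis, went from 265 to 308 CPM to 177 to 218 CPM (-0.55, SE 0.07). Etf1, the factor that ends translation at stop codons, went from 290 to 335 CPM to 175 to 229 CPM (-0.59, SE 0.08). The groups did not overlap for any of these 7 genes, as for 529 of all 1288 falls. They were named in part for a small p in these libraries, which favours this.

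Of 76 tested mitochondrial ribosomal protein genes 33 fell and 0 rose, with a median of -0.26. Of 80 nuclear genes of respiratory chain subunits 36 fell and 1 rose, with a median of -0.29. The 13 respiratory chain genes on the mitochondrial DNA had a median of 0.14, with 0 calls by edgeR and 0 at an unadjusted p under 0.05. With the spike-in share in the model 2 of the 13 fell and the median was -0.46. Both nuclear lists moved with the length index: with it in the model 6 mitochondrial ribosomal and 10 respiratory genes fell, and the medians were -0.13 and -0.09. Without WT22.8 the counts were 16 and 22, without WT19.2 they were 19 and 23, with the spike-in share 21 and 23, and among females 9 and 13.

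Cycs, the electron carrier cytochrome c, is in neither list and fell further than their medians. It measured 241, 202, 225, 222 and 225 CPM in WT and 111 to 154 CPM (median 128) in KO, a log2 difference of -0.78 (SE 0.09, edgeR adjusted p = 1.26e-05), and passed in every fit. Uqcrq, a subunit of complex III, went from 58.2 to 70.1 CPM to 36.8 to 52.96 CPM (-0.53, SE 0.10), and Atp5g3, a membrane ring subunit of ATP synthase, from 181 to 226 CPM to 110 to 157 CPM (-0.57, SE 0.10). Mrpl3, of the large mitochondrial ribosome subunit, went from 160 to 178 CPM to 114 to 130 CPM (-0.49, SE 0.07). Outside the lists, C1qbp, a matrix protein that supports mitochondrial translation, went from 495 to 605 CPM to 261 to 402 CPM (-0.71, SE 0.09), and Tomm5, of the outer membrane import pore, from 126 to 158 CPM to 75.7 to 116 CPM (-0.64, SE 0.11). Gcsh, of the glycine cleavage system, went from 152 to 186 CPM to 94.8 to 128 CPM (-0.62, SE 0.08). The 1 rise was Cox7a2l (0.30, SE 0.09), which joins complexes III and IV, lost without WT21.5, without both WT22.8 and KO22.2, with the spike-in share and among females.

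Proteasome subunits other than Psmc5 fell in 12 of 30 cases with 0 rises, and 29 estimates were below 0. The count was 7 without KO19.5 or WT22.8, 9 with the spike-in share, 2 with the length index and 0 among females. Psmd6 (-0.36, SE 0.08) and Psmd8 (-0.29, SE 0.06), both of the regulatory particle, led the list and were lost among females and with the length index. The size of these falls stayed well under that of Psmc5.

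**Figure D4:**
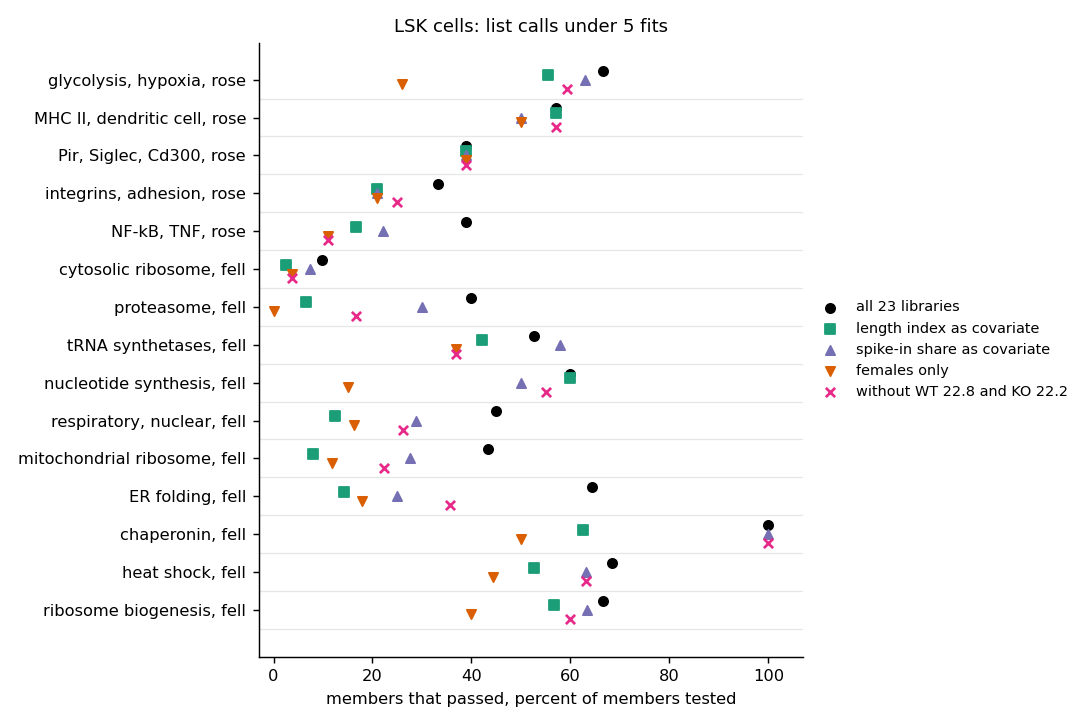
Percent of tested members past an adjusted p of 0.05 in the list's leading direction, for each list under 5 fits (all LSK libraries, length index, spike-in share, females alone, and without WT22.8 and KO22.2). Ribosome biogenesis went from 20 of 30 to 17 of 30 with the length index, and mitochondrial ribosomal proteins from 33 of 76 to 6 of 76.

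Of 41 DNA replication genes 11 fell (26.8%) and 0 rose, with a median of -0.14, against 9.28% of all genes. Of all genes at a mean log2 CPM of at least 7, where Rrm2, Pcna and Orc2 lie, 27.1% fell. The part of expression level in this count was not tested. Between 8 and 12 replication genes fell under the length index, the spike-in share, females alone and each library left out. Rrm2, which makes deoxynucleotides, measured 364, 463, 450, 403 and 366 CPM in WT and 218 to 330 CPM (median 281) in KO (-0.55, SE 0.10, edgeR adjusted p = 6.33e-04). Pcna, the sliding clamp of replication, went from 299 to 320 CPM to 210 to 280 CPM (-0.38, SE 0.08), and Orc2, of the origin recognition complex, from 155 to 181 CPM to 104 to 136 CPM (-0.51, SE 0.07). Ccne1, the cyclin of S phase entry, fell by 0.62 (SE 0.12), with 6 of 9 KO libraries below all WT. Of 31 mitosis genes 3 fell (9.68%), a share near the 9.28% of all genes, and all 31 estimates were below 0 (median -0.28). That count was 1 without KO19.5, WT22.8 or WT24.10, with the spike-in share, among females and with the length index. The level of the mitosis list overlapped, at -0.64 to 0.58 in WT and -0.81 to 0.23 in KO, with 2 of 9 KO libraries below all WT. Ccnb2, a mitotic cyclin, fell by 0.38 (SE 0.09), while Mki67, the proliferation marker, did not pass (-0.10, SE 0.23, edgeR adjusted p = 0.803).

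Regulators of the G1 phase moved both ways. Of 24 tested genes of this group and the MYC network 5 rose and 1 fell, and 3 rose without KO19.5, KO21.3, WT19.2, WT22.8 or WT24.10 or with the length index, and 2 among females. Cdkn1a, the p21 inhibitor of cyclin-dependent kinases, rose from 1.42 to 5.03 CPM to 5.38 to 11.9 CPM (1.35, SE 0.28, lost among females), and the atypical cyclin gene Ccng2 from 21.04 to 31.9 CPM to 41.6 to 61.8 CPM (0.80, SE 0.13). Ccnd1, the cyclin that drives G1, went from 78.8 to 98.0 CPM to 44.2 to 75.2 CPM (-0.53, SE 0.13) and did not pass with the spike-in share. Of 24 p53 target genes 5 rose and 0 fell, 2 without WT19.2, 3 without WT24.10 or with the length index, and 1 among females. Trp53inp1, a p53-induced stress gene, rose by 0.87 (SE 0.17). In the BCL2 and caspase list 5 rose (22.7%) and 3 fell (13.6%) of 22, against 9.53% and 9.28% of all genes. The rises came to 3 without WT19.2, WT21.5 or WT24.10, with the spike-in share or when the length index was in the model. Among females 2 rose and 1 fell. Bmf, a promoter of apoptosis, rose from 3.11 to 8.89 CPM to 6.06 to 25.5 CPM (1.42, SE 0.31). Bok, another, went from 12.7 to 19.25 CPM to 2.61 to 9.62 CPM (-1.11, SE 0.19).

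Genes of stem cell identity gave few calls that held in every fit. Of 29 tested stem cell transcription factor genes 6 rose and 0 fell, but 1 rose without WT22.8, 3 without KO19.5, 1 with the spike-in share, 0 with the length index and 2 among females. Meis1, a homeobox partner of stem cells, rose by 0.28 (SE 0.07) and was lost with the length index, among females and without both WT22.8 and KO22.2. Flt3, the receptor that marks multipotent progenitors, measured 364, 430, 380, 452 and 486 CPM in WT and 502 to 704 CPM (median 612) in KO, a rise of 0.54 (SE 0.08, edgeR adjusted p = 4.86e-05) without overlap. Kit, the cKit antigen of the gate, rose by 0.33 (SE 0.09), lost without WT19.2 and with the length index. Robo4, a stem cell and endothelial receptor, rose by 0.72 (SE 0.17), and the imprinted fetal liver gene Dlk1 by 0.94 (SE 0.21). Irf4, a regulator of dendritic and lymphoid cells, rose from 6.53 to 15.5 CPM to 16.6 to 45.1 CPM (1.32, SE 0.28).

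Other subunits of the BAF complexes were close to the background. Of 24 tested 2 rose and 2 fell, with a median of 0.11, 1 rose and 1 fell with the spike-in share or when the length index was in the model, and 1 rose and 0 fell among females. Arid1b, the large DNA-binding subunit, rose from 27.0 to 38.2 CPM to 45.4 to 63.7 CPM (0.73, SE 0.11, edgeR adjusted p = 5.92e-05) and passed in every fit. Actl6a, an actin-like subunit, measured 258, 242, 242, 246 and 242 CPM in WT and 195 to 224 CPM (median 204) in KO (-0.25, SE 0.05) and was lost among females alone. Of 30 Polycomb genes 7 rose and 2 fell, and 1 to 7 rose with 1 library left out. With the spike-in share 2 rose, with the length index 1 and among females 1. Without WT21.1 only 1 rose, without KO19.5 it was 2, without KO22.2, WT21.5, WT22.8 or WT24.10 it was 3, and without KO21.3 or WT19.2 it was 4. Pcgf6, which defines a variant of Polycomb complex 1, fell by 0.34 (SE 0.07), and the histone-binding subunit gene Rbbp7 by 0.23 (SE 0.06). Among females neither passed, and Rbbp7 was also lost with the length index and without both WT22.8 and KO22.2.

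Some pathways gave few or no calls. Of 24 cholesterol synthesis genes edgeR called 0, and 3 had an unadjusted p under 0.05. Of 25 immediate early and ERK feedback genes 1 rose, of 16 Wnt pathway genes 1, and of 37 histone cluster genes 1. Among females 0 of these passed. The integrated stress response list, by contrast, had calls both ways. Of its 20 genes 2 rose (10%) and 4 fell (20%), against 9.53% and 9.28% of all genes tested. The list's estimates ran from -0.60 to 1.07 with a median of -0.14, 8 above and 12 below 0. The falls came to 2 without KO19.5, KO19.6, KO22.5, WT19.2 or WT22.8 or among females, where 0 rose. Ddit3, the stress factor CHOP, was among the rises (0.77, SE 0.18) and did not pass among females.

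The KO effect in LSK cells was then set against that in common myeloid progenitors (CMP, 4 KO and 3 WT libraries). The difference between both effects was tested in 1 model. That model also held the heterozygous libraries of both cell types, 7 of them CMP, for the estimate of the spread. By label, the WT and KO libraries of both cell types had the same age range, and 1 heterozygous CMP library was older. The sex of the CMP libraries was not determined, so any part of sex in the differences was not tested. Of 12610 genes tested 16 differences were above 0 and 3 below (19 genes, 0.151%), and 915 had an unadjusted p under 0.05. The count was 8 without CMP WT 2 and 38 without CMP KO 6, 86 with limma voom and 40 when the heterozygous libraries were left out. Levels were not compared between the cell types.

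The differences with the smallest p included genes with a negative estimate in CMP that lay below the estimate in LSK. Ablim1, an actin-binding protein gene, had a log2 difference of -0.19 in LSK and -2.27 in CMP, a difference between effects of 2.08 (SE 0.24, edgeR adjusted p = 1.32e-06). Its level was 61.2 to 90.0 CPM in LSK WT, 51.9 to 80.5 CPM in LSK KO, 28.1 to 36.9 CPM in CMP WT and 4.93 to 10.3 CPM in CMP KO. Hpse, for heparanase, which cuts heparan sulphate, had effects of 0.55 and -2.61 (3.16, SE 0.41). Tmem154 had effects of -0.36 and -2.06 (1.70, SE 0.28), Lbp, the endotoxin-binding protein, -0.02 and -1.45 (1.43, SE 0.25), and the kinase gene Ikbke -0.03 and -1.82 (1.79, SE 0.33).

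For others the estimates had opposite signs. Tsc22d3 had effects of 0.71 in LSK and -0.54 in CMP (1.25, SE 0.18), and Mgst1, a membrane glutathione transferase gene, 0.78 and -0.72 (1.50, SE 0.30, lost without CMP WT 12). Glipr2 had effects of 0.23 and -0.82 (1.05, SE 0.20, lost without CMP WT 2). With both estimates above 0 and the smaller one in LSK stood Gimap1, a GTPase gene of lymphocytes (0.49 and 1.48, difference -0.99), St8sia1, a sialyltransferase gene (0.59 and 2.71, difference -2.12), and the DNA repair gene Xrcc5 (0.24 and 1.12, difference -0.87). All 3 were lost without CMP WT 2 and St8sia1 also without CMP WT 12. Xrcc5 was lost as well without any other CMP library and without LSK WT21.5 or LSK WT24.10.

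Bnip3 and Ero1l, an oxidase of the endoplasmic reticulum that HIF-1 induces, were singled out after their values were seen. Bnip3 had effects of 1.46 in LSK and -0.22 in CMP (1.68, SE 0.33, edgeR adjusted p = 0.0132, lost without CMP WT 2 and when the heterozygous libraries were left out). Ero1l had effects of 0.25 and -1.23 (1.48, SE 0.31, edgeR adjusted p = 0.0214), lost without CMP WT 2, CMP KO 11, 13 or 15, or LSK WT19.2, WT21.5 or WT24.10. In CMP, Bnip3 measured 27.1 to 54.6 CPM in WT and 22.36 to 42.65 CPM in KO, with overlap.

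**Figure D5:**
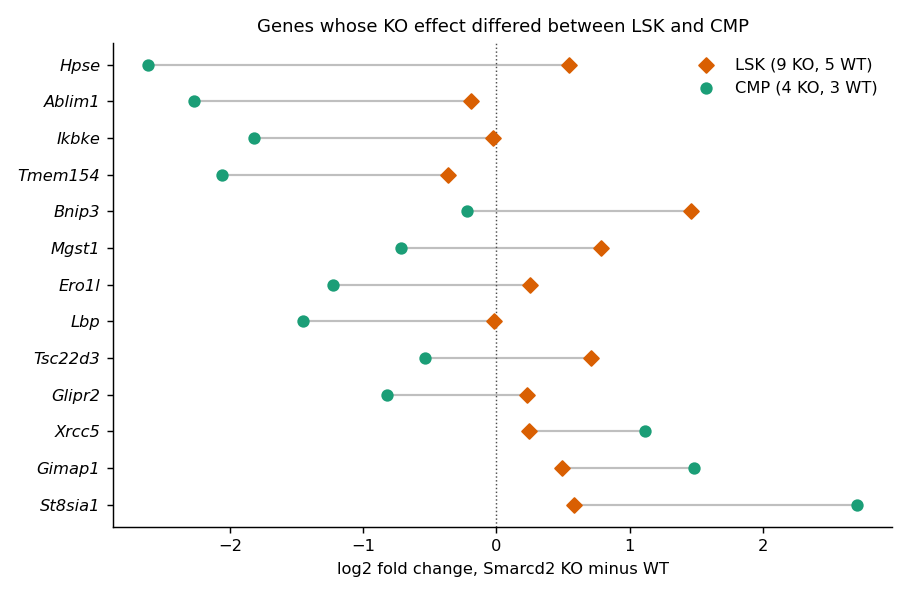
Log2 difference (KO minus WT) of 13 genes in LSK (9 KO, 5 WT) and in CMP (4 KO, 3 WT) libraries, a line joining both values of a gene. Ablim1 lies at -0.19 in LSK and -2.27 in CMP, and Bnip3 at 1.46 in LSK and -0.22 in CMP.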

How the data were processed

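Fetal liver LSK cells were sorted into lysis buffer and made into Smart-seq2 libraries, which carry neither strand information nor molecular identifiers, with spike-in RNA. The authors deposited raw read counts per gene for each library, made with featureCounts on GRCm38 (mm10) per the submitters' processing notes; neither the sources used here nor the files name the aligner, annotation release or versions. Spike-in rows were left out of library sizes. Gene symbols, positions and transcript lengths were matched in GENCODE mouse release 21 (1317 of 38924 identifiers unmatched). Counts were filtered with edgeR 4.0.16 filterByExpr (minimum count 10, total 15), scaled by TMM and tested with edgeR's quasi-likelihood test in R 4.3.3, with WT, KO and heterozygous groups in 1 model and Benjamini-Hochberg adjustment over all genes tested. The genotype effects in LSK and CMP were compared as an interaction over the 15790 genes listed in both. Fold changes, standard errors and p-values are from these fits. CPM values are edgeR's. List levels are medians over members of log2(CPM + 0.5) relative to the gene's WT mean.

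Named genes were Smarcd2, the 15 rises and 15 falls of smallest p (mean log2 CPM of at least 1) and of largest change (at least 5), up to 5 members per list by p, and 8 differences on each side between LSK and CMP; some were left out and further list members added by value. The members and the 54 lists were chosen with earlier results of these data known. Promoter sequences are RefSeq's, GRCm38.p6. The alternatives used DESeq2 1.42.0, limma 3.58.1 (voom), RLE scaling, tables without the count filter or with a minimum of 50, covariates, females alone and each library left out; 1 alternative, without WT 22.8 and KO 22.2, was chosen after seeing the data. The test was checked on simulated data.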

Additional observations from a re-analysis of the deposited data

Results flagged for a closer look

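In 6 of 238 groups of values checked, 1 library lay far from the others of its group, where chance gives about 1 in 20. KO24.5 was highest for Tcam1, at 2.58 CPM, and KO22.4 lowest for H2-Ab1, at 4.31 CPM. KO22.5 was highest for Il10ra, at 101 CPM. WT24.10 was highest for Tnip3, at 28.03 CPM, and WT19.2 highest for Actl6a, at 258 CPM. KO19.5 had the most reads in genes, 13741434.

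The KO effect differed between LSK and CMP, by the test of the difference itself, for 13 genes that are named. It was more positive in LSK by 2.08 on the log2 scale for Ablim1, 3.16 for Hpse, 1.25 for Tsc22d3, 1.70 for Tmem154, 1.43 for Lbp, 1.79 for Ikbke, 1.05 for Glipr2, 1.50 for Mgst1, 1.48 for Ero1l and 1.68 for Bnip3. It was more negative in LSK for Gimap1 (-0.99), St8sia1 (-2.12) and Xrcc5 (-0.87).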

How the results depend on the processing

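The 2610 genes called (1322 above and 1288 below 0) came to 925 (515 and 410) among females, 1374 (708 and 666) with the length index, 1612 (815 and 797) with the spike-in share, and 1630 (865 and 765) without both WT22.8 and KO22.2. With 1 library left out they ranged from 1684 to 2675 (868 to 1405 above and 816 to 1277 below 0), lowest without WT22.8. DESeq2 called 2802, voom 3486, RLE scaling 2612, the stricter count filter 2500 and no filter 2003, all within 1.5 times. Of 108 named genes that passed, 23 did not pass among females, 12 with the length index and 8 with the spike-in share, and 0 changed direction in any alternative run. The cause was not tested. The female fit has fewer samples.

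The 19 LSK and CMP differences came to 86 with voom, 40 with only WT and KO libraries, and 8 to 38 with 1 library left out. Of the library measures, none passed with all libraries. With 1 library left out, the KO minus WT difference ranged from 0.213 to 0.315 points for the spike-in share (adjusted exact permutation p = 0.0408 without KO21.2) and from 0.18 to 0.24 for the length index (0.227 with adjusted p = 0.0408 without KO21.2, and 0.238 with adjusted p = 0.0466 without KO19.6, both exact).

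With the title number as a replicate block 1535 genes rose and 1497 fell, and 13 differences between LSK and CMP passed. The block changed no call of a named gene in LSK, while Gimap1, St8sia1, Xrcc5 and Bnip3 no longer passed between LSK and CMP. Deviations from the genotype's mean were correlated between LSK libraries of different genotype, heterozygous ones included. The correlation was above 0.1 in 27 of 35 pairs with the same title number (0.01 to 0.52, median 0.25). With different numbers it was so in 21 of 136 pairs (median -0.05). Pairs of the same genotype were not examined. Across genotypes, libraries with the same title number thus resembled each other more than others did. The main fit did not model this, since the labels do not say what the numbers mark. Its p-values treat the libraries as separate, and the fit with the block is given as the alternative. Depth differed up to the range given, and low genes such as Tcam1 and Nlrc5 rest on few reads.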

Other observations

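Zinc finger genes named Zfp rose in 42 of 326 tested cases (12.9%) and fell in 2, with a median of 0.18, against 9.53% and 9.28% of all genes. The count was 27 without WT21.1, 19 without WT22.8, 14 with the spike-in share, 7 with the length index and 7 of 323 among females.

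Splicing factor genes of the Srsf and Hnrnp families fell in 8 of 30 cases (26.7%) with 0 rises, and in 4 among females. That share is above the 9.28% of all genes. It is near the 27.1% of all genes at a mean log2 CPM of at least 7, where Srsf6 and Hnrnpdl lie. Srsf6, which steers alternative exon choice, had 808 to 1048 CPM in WT and 667 to 818 CPM in KO (-0.39, SE 0.07), with 8 of 9 KO libraries below all WT. Hnrnpdl, an RNA-binding protein gene, fell by 0.43 (SE 0.08). Taf4b, a subunit of the basal transcription factor TFIID, went from 34.7 to 50.02 CPM to 17.3 to 29.1 CPM (-0.85, SE 0.14), without overlap.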
